A study of Mus musculus with 15 samples.

Results

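Astrocytes and Bergmann glia were followed through 10 of their genes in 2 brain regions, the cerebellum (Ce) and the striatum (St), of mice bred for running. The genes were chosen by symbol, and all 10 were found among the 26628 genes of the expression table. They were Gfap, Aqp4, Slc1a2, Slc1a3, Gja1, Gjb6, Aldh1l1, S100b, Gdf10 and Hopx. RNA-seq was run on whole dissected Ce and St of male mice of the outbred Hsd:ICR background, given as 6 weeks old in the labels and 7 weeks old in the study's methods. The mice were of a line bred for much running on a voluntary wheel (Hi, line 7) or of an unselected control line (Co, line 1). There were 4 CeCo, 4 CeHi, 4 StCo and 3 StHi samples, after the authors had removed a StHi sample on the basis of a principal component analysis. Mice of both lines lived with a running wheel until dissection on day 7, so neither line is a sedentary group. Each line was a single breeding line, so a Hi against Co difference cannot be told apart from any other difference between these lines. Nothing in the labels ties a Ce sample to a St sample of the same mouse, and the study's methods describe the mice as not closely related.

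Astrocytes are the glial cells that clear transmitter from synapses, buffer potassium and water, and feed neurons with metabolites. Bergmann glia are the specialised astrocytes of the cerebellar cortex, with cell bodies beside the Purkinje cells and fibres that wrap their synapses. Both express glutamate transporters and gap junction proteins, but the balance of these proteins is known to differ between brain regions, and Bergmann glia carry a set of genes that most other astrocytes have at low levels. Gfap protein is the classical mark of astrocytes that react to injury.

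The bases upstream of 5 of the genes are shown as examples. Gdf10, Hopx, Slc1a3 and S100b differed between regions in the test given below, and Gfap and S100b differed between lines over both regions. Other members that differed between regions, among them Slc1a2, are not printed. The 250 bases before the start site were taken from RefSeq promoter entries on GRCm38.p6, in which 9 of the 10 genes were found. Aqp4 was the gene without an entry. The motifs of 3 kinds of factors known in glia were searched on both strands, namely the nuclear factor I (NFI) motif TTGGC, the SOX core ACAAT and the STAT site TTCNNNGAA, and matches are in capitals. Of 32851 promoters of the same length, 41.5% held the NFI motif, 27.7% the SOX core and 7.02% the STAT site. The windows are, in the order printed, chr14:33923337-33923586 on the plus strand, chr5:77115124-77115373 on the minus strand, chr15:8710808-8711057 on the minus strand, chr10:76253586-76253835 on the plus strand and chr11:102897201-102897450 on the minus strand. The Gdf10, Hopx, Slc1a3 and S100b windows overlap no gene of the GENCODE M21 annotation, and that of Gfap lies inside the Gfap and Gm26668 genes but on no exon.
Gdf10: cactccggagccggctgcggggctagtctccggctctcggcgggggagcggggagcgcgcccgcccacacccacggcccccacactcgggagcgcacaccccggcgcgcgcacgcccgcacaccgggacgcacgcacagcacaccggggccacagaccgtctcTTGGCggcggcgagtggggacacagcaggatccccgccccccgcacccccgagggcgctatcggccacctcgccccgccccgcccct
Hopx: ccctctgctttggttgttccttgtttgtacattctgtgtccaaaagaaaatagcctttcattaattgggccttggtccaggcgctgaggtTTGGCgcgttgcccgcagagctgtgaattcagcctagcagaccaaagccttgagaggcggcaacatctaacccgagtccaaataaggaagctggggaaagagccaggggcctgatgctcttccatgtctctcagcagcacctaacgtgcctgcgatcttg
Slc1a3: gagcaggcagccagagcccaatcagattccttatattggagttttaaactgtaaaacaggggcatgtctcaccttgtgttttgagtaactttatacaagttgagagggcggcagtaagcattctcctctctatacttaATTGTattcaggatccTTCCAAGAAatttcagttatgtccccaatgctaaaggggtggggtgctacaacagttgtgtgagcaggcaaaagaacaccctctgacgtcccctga
S100b: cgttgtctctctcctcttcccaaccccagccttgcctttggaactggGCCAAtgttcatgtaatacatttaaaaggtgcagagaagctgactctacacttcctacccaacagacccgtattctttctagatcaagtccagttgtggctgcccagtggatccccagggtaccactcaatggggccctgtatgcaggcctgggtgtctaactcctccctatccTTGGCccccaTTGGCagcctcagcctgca
Gfap: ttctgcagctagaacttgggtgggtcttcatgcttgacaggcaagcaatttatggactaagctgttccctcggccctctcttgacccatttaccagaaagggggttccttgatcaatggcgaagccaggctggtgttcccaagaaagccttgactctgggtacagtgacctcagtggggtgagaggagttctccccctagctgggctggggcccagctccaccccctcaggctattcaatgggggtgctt

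Hopx has another RefSeq entry, at chr5:77095268-77095517, which is not printed because it overlaps exons of Hopx and Hopxos, and which held no NFI motif and 1 SOX core at 179 bases. The Gdf10 window held 1 NFI motif, 87 bases before the start, and the printed window of Hopx held 1 at 160 bases. The Slc1a3 window held 1 SOX core at 112 bases and 1 STAT site at 96 bases before the start. The S100b window held 3 NFI motifs, at 203, 29 and 19 bases. None of the 3 motifs was found in the Gfap window. The Gdf10 window stands out by base composition, with 78.8% G and C against a median of 52.4% and a 95th percentile of 73.6% over all promoters, whereas the windows of Gfap, S100b, Hopx and Slc1a3 had 55.6%, 53.6%, 52.4% and 44.8%. These matches describe the letters of each window, and binding was not measured here.

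Values are normalized counts, the fragment counts of a gene divided by a library size factor, without division by gene length. Totals were 38499264 to 43669012 normalized counts per sample, and 1 fragment was worth 0.841 to 1.30 normalized counts, and every member value rested on at least 302 fragments, the fewest being for Gdf10 in StCo. Together the 10 genes held 0.420% to 0.501% of all counts of a sample. The dissections matched their labels. The summed markers of medium spiny neurons, the main striatal neurons, were in the Ce at 4.75% to 6.59% of their mean in the St, and those of cerebellar granule cells were in the St at 0.130% to 0.239% of their mean in the Ce. No marker of the 12 cell types examined was at 0 in any sample. Astrocyte genes were measured in whole tissue, so fewer cells of a type and less RNA per cell cannot be told apart. All 10 genes passed the filter on low values and were tested among 15213 genes with limma on log2 of the normalized count plus 1, with Benjamini-Hochberg adjustment (FDR).

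The astrocyte genes, like the whole set of genes tested, parted the regions far more than the lines. Between Ce and St, 8 of the 10 genes were higher in the Ce, Slc1a2 was higher in the St, and Gfap alone did not pass the test. Of all genes tested, 40.6% were higher in the Ce and 39.6% were higher in the St at the same threshold of 0.05. In either direction this was 12200 of 15213 genes, beside 9 of 10 members, so a regional call by itself is common. The median log2 difference (Ce minus St) of the members was 1.13, against 0.01 over all genes tested. For the lines, none of the 10 genes passed the FDR threshold in limma within the Ce, where 5.94% of all genes did, or within the St, where 2.66% did. In the Ce 3 members had an unadjusted P-value under 0.05, edgeR called 0 and DESeq2 called 1, which was Gfap. Over all genes, 2990 of 15213 had such a P-value in the Ce, and DESeq2 called 1390 of 15212. In the St 4 members had an unadjusted P-value under 0.05, edgeR called 0 and DESeq2 called 2, which were S100b and Gdf10. Over all genes, 2141 of 15213 had such a P-value in the St, and DESeq2 called 711 of 15212. With the mean of the line differences in both regions, Gfap and S100b passed, 2 of 10 members against 8.48% of all genes. Tests over both regions treat Ce and St samples as independent. If these came from the same mice, each mouse would be counted more than once. The line-by-region interaction was called for 0 members in limma and edgeR, against 0.532% of all genes, with 2 members at an unadjusted P-value under 0.05 and 1 call, Gdf10, in DESeq2. Over all genes, 1454 of 15213 had such a P-value for the interaction, and DESeq2 called 277 of 15212. The median log2 difference (Hi minus Co) of the members was 0.07 within the Ce and 0.18 within the St, beside medians of -0.0021 and -0.0046 over all genes.

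**Figure D1:**
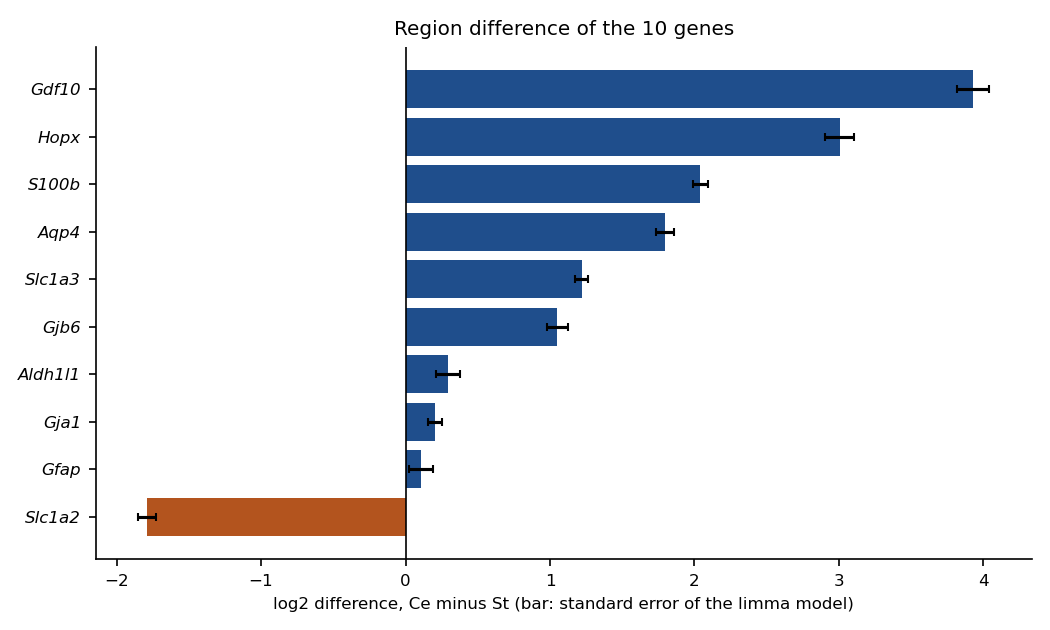
Region difference of each of the 10 genes on the log2 scale (Ce minus St, mean of the line groups, x axis), with bars for the limma estimate and error bars for its standard error. Gdf10 (3.93) and Hopx (3.005) lie farthest to the Ce side, Gfap (0.11) is near 0, and Slc1a2 (-1.79) is the bar on the St side.

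Among Ce samples, levels per kilobase of exon were led by S100b and by the glutamate transporter Slc1a3. The length used was that of all annotated exons of a gene joined, so the order of genes is approximate. In CeCo the means were 13919 ± 827 (SD, n = 4) normalized counts per kilobase for S100b and 7878 ± 481 for Slc1a3, followed by Hopx (3250 ± 270), Slc1a2 (3146 ± 175), Aqp4 (2411 ± 114), Gjb6 (1684 ± 135), Gdf10 (1440 ± 199), Gfap (881 ± 103), Gja1 (828 ± 45.3) and Aldh1l1 (463 ± 49.2). Sample ranges overlapped between Hopx and Slc1a2, between Gjb6 and Gdf10 and between Gfap and Gja1, and the other neighbours were apart. In CeHi the order was the same except that Slc1a2 stood above Hopx and Gfap above Gdf10, and in both of these pairs the ranges overlapped.

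In the St the order was another. Slc1a2 led StCo with 11139 ± 1273 (SD, n = 4) normalized counts per kilobase, above Slc1a3 (3544 ± 102) and S100b (3140 ± 313), whose ranges overlapped. Gfap, Gjb6, Gja1 and Aqp4 followed at 740 to 848 with each overlapping the next, then Aldh1l1 (368 ± 38.3) and Hopx (348 ± 64.2), which overlapped, and Gdf10 was last at 67.3 ± 3.70. In StHi Slc1a2 (10439 ± 629, n = 3) was again first and Gdf10 last. Unlike in StCo, S100b (3873 ± 239) stood above Slc1a3 (3401 ± 142) in StHi, with ranges apart. Aqp4 stood above Gja1 and Hopx above Aldh1l1 there, with overlapping ranges. S100b moved from the top of the list in the Ce to below Slc1a2 in the St, and Gdf10 from the middle to the end. Exon lengths were those of GENCODE M21, and the annotation used for counting may differ. The transcripts expressed may also be shorter than the joined exons, by an amount that differs between genes.

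**Figure D2:**
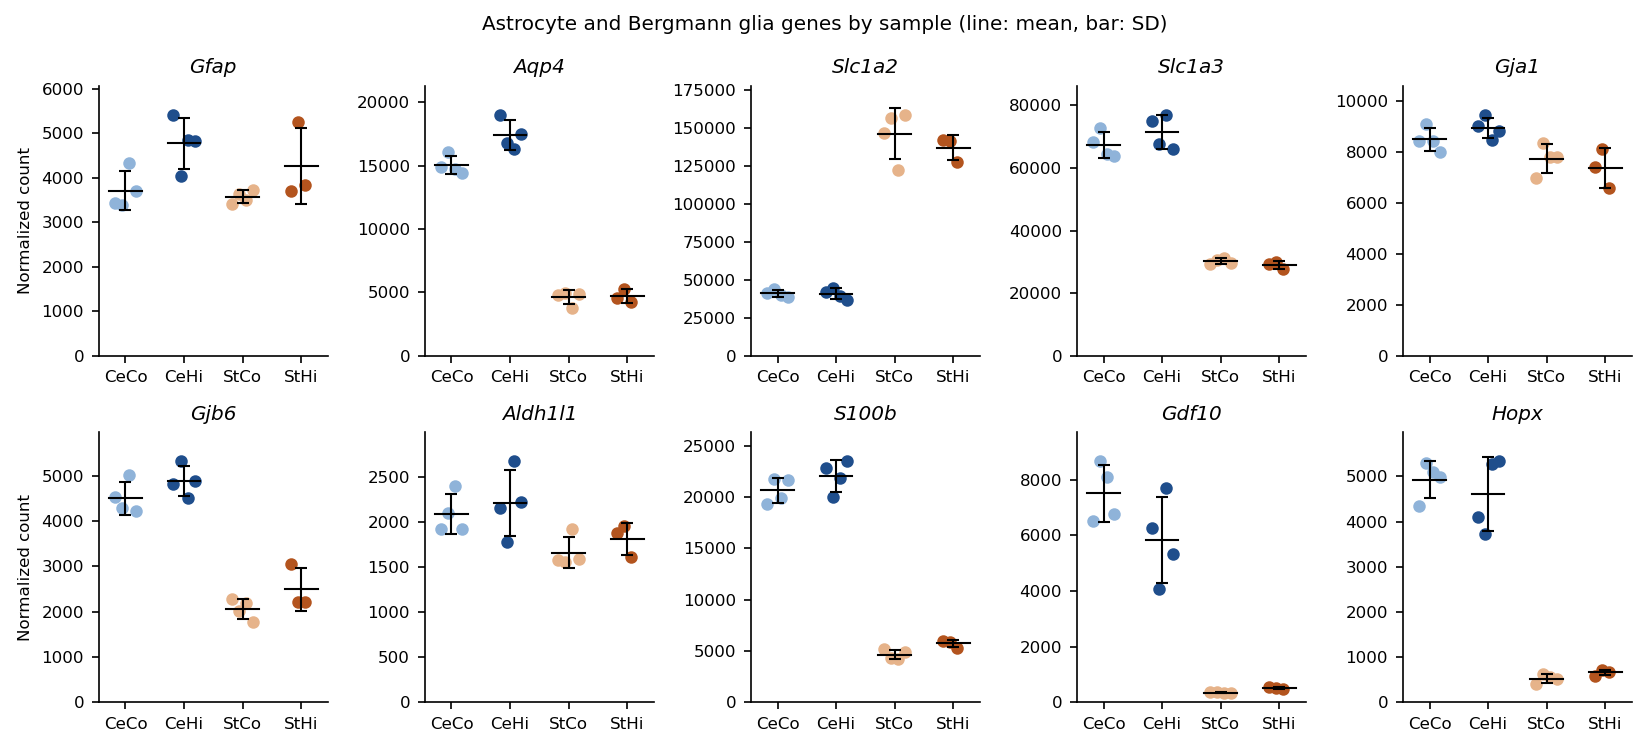
Normalized counts (y axis, from 0) of the 10 genes in each sample of CeCo, CeHi, StCo and StHi, with the group mean as a line and the SD as a bar. Slc1a2 is high in the St, Gdf10, Hopx, S100b and Aqp4 are high in the Ce, and the Gfap samples of both regions share one range.

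The glutamate transporters differed in opposite directions between regions. Slc1a2 encodes GLT-1, which takes up most of the glutamate in the forebrain, and Slc1a3 encodes GLAST, the main glutamate transporter of Bergmann glia. Slc1a2 had 41675, 44367, 40077 and 39113 normalized counts in CeCo and 42352, 44981, 39287 and 36652 in CeHi. In the St it had 146875, 156993, 122439 and 158709 in StCo and 142256, 141391 and 127541 in StHi. Every St sample was above every Ce sample, and the Hi and Co samples overlapped in each region. The mean was 3.47 times as high in the St, a log2 difference of -1.79 ± 0.06 (SE, Ce minus St, FDR-adjusted P-value = 2.2e-14).

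Slc1a3 had 68163, 72690, 64416 and 63755 normalized counts in CeCo and 75005, 67675, 76921 and 66084 in CeHi. It had 29399, 30766, 31208 and 29660 in StCo and 29459, 29979 and 27665 in StHi. All Ce samples were above all St samples, by a factor of 2.33 in the means (log2 difference 1.22 ± 0.04, SE, FDR-adjusted P-value = 4.9e-14). For the lines, the log2 difference (Hi minus Co) of Slc1a2 was -0.03 (95% interval -0.20 to 0.15) in the Ce and -0.09 (-0.28 to 0.09) in the St. That of Slc1a3 was 0.08 (-0.05 to 0.21) in the Ce and -0.07 (-0.20 to 0.07) in the St. None of these differences passed the test, and line differences beyond these bounds lie outside the intervals.

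The ratio of Slc1a3 to Slc1a2 within a sample, which does not depend on the library size, was 1.63 ± 0.0141 (SD, n = 4) in CeCo against 1.76 ± 0.188 (n = 4) in CeHi, and in the St it was 0.209 ± 0.0308 (StCo, n = 4) against 0.212 ± 0.00492 (StHi, n = 3). The 4 CeCo samples lay within 0.68 and 0.71 on the log2 scale, whereas those of CeHi spread from 0.59 to 0.97, and all but the lowest were above the CeCo samples. The difference between lines did not pass an exact two-sided permutation test in the Ce (difference of the log2 ratio 0.11, P-value = 0.229, adjusted over 4 ratio tests 0.457) or in the St (0.03, P-value = 0.886, adjusted 0.886). The smallest P-value that these tests can give is 0.0286 in each region.

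The gap junction genes Gja1 and Gjb6 encode connexin 43 and connexin 30, which couple astrocytes to each other. Gja1 ranged from 7985 to 9452 normalized counts in the Ce and from 6594 to 8370 in the St, overlapping ranges with a small regional difference (log2 0.20 ± 0.05, SE, FDR-adjusted P-value = 0.0012). Gjb6 had 4208 to 5311 in Ce samples and 1778 to 3047 in St samples, with no overlap and a mean 2.09 times as high in the Ce (log2 1.05 ± 0.07, FDR-adjusted P-value = 9.7e-10). The ratio of Gja1 to Gjb6 was 1.90 ± 0.183 (CeCo, SD, n = 4) and 1.84 ± 0.0487 (CeHi, n = 4) but 3.78 ± 0.594 (StCo, n = 4) and 3.03 ± 0.622 (StHi, n = 3). Between lines the log2 ratio differed by -0.04 in the Ce (exact permutation P-value = 0.657, adjusted 0.876) and by -0.33 in the St (exact permutation P-value = 0.171, adjusted 0.457).

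The line differences of the connexin genes were small beside their spread. Gjb6 in the St had 2275, 2026, 2193 and 1778 normalized counts in StCo and 3047, 2215 and 2205 in StHi. The first StHi sample stood above all others, and the other StHi samples lay within the StCo range. The log2 difference (Hi minus Co) was 0.25 ± 0.11 (SE) with an unadjusted P-value of 0.0352 and an FDR-adjusted P-value of 0.301, and without that StHi sample (replicate 0) it was 0.10. In the Ce it was 0.11 ± 0.10 for Gjb6 (FDR-adjusted P-value = 0.60), and for Gja1 it was 0.07 ± 0.07 (Ce) and -0.08 ± 0.07 (St).

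**Figure D3:**
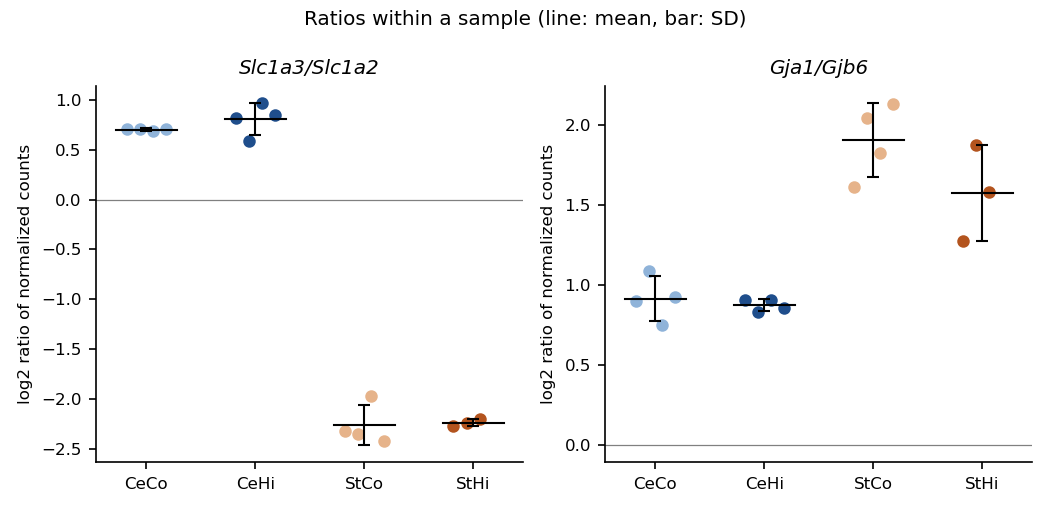
Log2 ratio of normalized counts of Slc1a3 to Slc1a2 (left) and of Gja1 to Gjb6 (right) in each sample by group, with the group mean as a line and the SD as a bar. The Slc1a3 to Slc1a2 ratio is above 0 in every Ce sample and near -2.27 in StCo and -2.24 in StHi, while the Gja1 to Gjb6 ratio is above 0 in all groups and higher in the St.

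Aqp4, the water channel of astrocyte endfeet around blood vessels, was 3.49 times as high in the Ce (log2 difference 1.80 ± 0.06, SE, FDR-adjusted P-value = 3.7e-14). It had 14923, 16049, 14707 and 14434 normalized counts in CeCo and 18998, 16811, 16346 and 17466 in CeHi. It had 4808, 4980, 3784 and 4885 in StCo and 4577, 5307 and 4215 in StHi. Every CeHi sample was above every CeCo sample, whereas the St samples of the lines overlapped. Aqp4 was the only member whose Hi and Co samples did not overlap in the Ce, which was the case for 13.3% of all genes tested. Its log2 line difference in the Ce was 0.20 ± 0.09 (FDR-adjusted P-value = 0.19), and in the St it was 0.02 ± 0.09 (FDR-adjusted P-value = 0.96). The difference between the regions in this line effect was 0.18 ± 0.13 and did not pass the test (FDR-adjusted P-value = 0.74).

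Gfap, the intermediate filament protein that astrocytes raise when they react to injury, was the member closest to equal levels in the regions, with a log2 difference of 0.11 ± 0.08 (SE, Ce minus St, 95% interval -0.07 to 0.28, FDR-adjusted P-value = 0.235). It had 3441, 3383, 4335 and 3705 normalized counts in CeCo and 5415, 4033, 4845 and 4820 in CeHi. It had 3415, 3645, 3509 and 3736 in StCo and 3702, 5249 and 3838 in StHi. In the Ce, all CeHi samples but replicate 1 were above every CeCo sample, and in the St replicate 0 of StHi lay inside the StCo range while replicate 1 stood far above. The Hi mean of Gfap was above the Co mean by 28.6% for the Ce and 19.2% for the St. The log2 difference (Hi minus Co) was 0.36 ± 0.11 in the Ce (FDR-adjusted P-value = 0.073), 0.23 ± 0.12 in the St (0.42) and 0.29 ± 0.08 over both regions (0.035), and the last passed the test.

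The Gfap call over both regions was lost when any of 10 of the 15 samples was left out, with FDR-adjusted P-values of 0.0531 to 0.0795. These were replicates 0, 1 and 3 of CeCo, replicates 0, 2 and 3 of CeHi, replicates 0, 1 and 2 of StCo, and replicate 1 of StHi, without which the log2 difference was 0.21. It was also lost with the replicate number as a block (0.30, FDR-adjusted P-value = 0.0673). With any single sample left out, the difference stayed positive, at 0.21 to 0.34. In the Ce alone, the Gfap difference passed the test in DESeq2 (FDR-adjusted P-value = 0.0234) and with sample quality weights (0.0426), and also without CeCo replicate 2 (0.031), CeHi replicate 1 (0.0292) or StHi replicate 1 (0.0235). Over all alternatives the FDR-adjusted P-value of this difference ranged from 0.0234 to 0.186. Without StHi replicate 1 Gfap was also called higher in the Ce than in the St (log2 0.19, FDR-adjusted P-value = 0.0205).

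S100b, a calcium-binding protein of astrocytes that is found in some oligodendrocytes as well, was 4.16 times as high in the Ce (log2 difference 2.04 ± 0.05, SE, FDR-adjusted P-value = 8.0e-16). It had 19301, 21712, 19933 and 21676 normalized counts in CeCo and 22840, 19975, 21870 and 23453 in CeHi. It had 5188, 4300, 4242 and 4911 in StCo and 5974, 5928 and 5339 in StHi. The lines overlapped in the Ce, and in the St every StHi sample was above every StCo sample. S100b and Gdf10 were the members without overlap between lines in the St, 2 of 10, against 13.1% of all genes tested. The log2 difference (Hi minus Co) of S100b was 0.09 ± 0.07 in the Ce (FDR-adjusted P-value = 0.56), 0.30 ± 0.08 in the St (0.052) and 0.19 ± 0.05 over both regions (0.032), and only the last passed the test. The difference between regions in this line effect was not called (-0.21 ± 0.11, FDR-adjusted P-value = 0.57).

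The S100b call over both regions was lost without replicates 0 or 2 of CeCo, replicate 0 of CeHi, replicates 1 or 2 of StCo, or replicates 0 or 1 of StHi, with FDR-adjusted P-values of 0.0504 to 0.0806 and log2 differences of 0.17 to 0.19 in these fits. In the St alone it passed the test in DESeq2 (0.0114), with no scaling (0.047), with sample quality weights (0.0492) and with the replicate number as a block (0.0279), and without CeHi replicate 1 (0.0364), CeHi replicate 3 (0.0374) or StCo replicate 0 (0.0242), with a range of 0.0114 to 0.184 over all alternatives. Some oligodendrocyte markers differed between the lines as well. Over both regions the log2 difference (Hi minus Co) was positive for 4 of 5 markers. It was negative for Mog (-0.22 ± 0.18, SE, FDR-adjusted P-value = 0.53). Within the Ce or the St, limma called 0 of the 5, and DESeq2 called Mbp in the St. Of the 5 markers, 2 were called higher in Hi over both regions, among them Mbp, a protein of myelin (log2 0.35 ± 0.09, SE, FDR-adjusted P-value = 0.021), and the sum of the 5 was 168393 to 205985 normalized counts in CeCo against 193796 to 249158 in CeHi, and 184858 to 269931 in StCo against 283034 to 322892 in StHi. Their part in the S100b difference was not tested. Between regions, all 5 markers were lower in the Ce, where S100b was higher.

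Several members overlap another gene on the opposite strand, in S100b the protein-coding gene Dip2a, and noncoding genes in Gfap (Gm26668), Slc1a2 (Gm13872), Aldh1l1 (Gm15756), Hopx (Hopxos) and Aqp4. Whether the counting used strand is not given in the sources used here, and without strand the reads of such partners cannot be told apart. On the same strand, Slc1a3 overlaps Gm37310, and Aldh1l1 overlaps Gm45901 and Gm44236, which strand would not separate. On GRCm38 the gene of Gfap lies at chr11:102887336-102900912 on the minus strand and S100b at chr10:76253853-76261159 on the plus strand. Slc1a2 lies at chr2:102658659-102790784 (plus), Slc1a3 at chr15:8634124-8710764 (minus), Gja1 at chr10:56377330-56402513 (plus), Gjb6 at chr14:57123303-57133611 (minus), Aldh1l1 at chr6:90486427-90600203 (plus), Gdf10 at chr14:33923587-33937983 (plus) and Hopx at chr5:77086988-77115121 (minus).

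Aldh1l1, an enzyme of folate metabolism and a mark of most astrocytes, was the member with the lowest level per kilobase in the Ce. It had 1783 to 2675 normalized counts in Ce samples and 1556 to 1958 in St samples, which overlapped, and a mean 1.24 times as high in the Ce (log2 difference 0.30 ± 0.08, SE, FDR-adjusted P-value = 0.0036). Its log2 line differences (Hi minus Co) were 0.07 ± 0.11 (Ce) and 0.12 ± 0.12 (St) (FDR-adjusted P-values 0.80 and 0.76).

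Gdf10 and Hopx, known marks of Bergmann glia, had the largest regional differences of the 10 genes. Gdf10 encodes a secreted ligand of the transforming growth factor family, and Hopx a small homeodomain protein that does not bind DNA by itself. Gdf10 had 6519, 8650, 8098 and 6745 normalized counts in CeCo and 6258, 4056, 7710 and 5310 in CeHi. It had 373, 360, 337 and 332 in StCo and 562, 511 and 475 in StHi. The mean of all samples was 15.8 times as high in the Ce (log2 difference 3.93 ± 0.11, SE, FDR-adjusted P-value = 5.5e-14), by a factor of 21.4 in Co and 11.3 in Hi.

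The line difference of Gdf10 was negative in the Ce and positive in the St, and neither value passed the test in limma. In the Ce 3 of the 4 CeHi samples were below every CeCo sample, and the ratio of the means was 0.778 (log2 -0.40 ± 0.15, SE, FDR-adjusted P-value = 0.15). In the St every StHi sample was above every StCo sample, and the mean was higher by 47.2% (log2 0.55 ± 0.16, FDR-adjusted P-value = 0.0998). The interaction was -0.95 ± 0.22 with an unadjusted P-value of 0.00079 and an FDR-adjusted P-value of 0.088, which missed the threshold. It passed in DESeq2 (0.00435) and without CeHi replicate 1 (-0.79, FDR-adjusted P-value = 0.0479) or CeHi replicate 2 (-1.10, 0.0151), the lowest and the highest CeHi samples, and ranged from 0.00435 to 0.188 over all alternatives. The St difference passed in DESeq2 (0.0237), in a fit of the St alone (0.0132), and without CeHi replicate 1 (0.0162) or CeHi replicate 2 (0.0315), which enter it only through the shared estimate of the spread, with a range of 0.0132 to 0.248. The Ce difference passed without CeHi replicate 2 (-0.54, FDR-adjusted P-value = 0.0246), and without CeHi replicate 1 it was -0.23, with FDR-adjusted P-values of 0.0246 to 0.343 over all alternatives.

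Hopx had 4344, 5295, 5087 and 4984 normalized counts in CeCo and 4097, 3726, 5280 and 5330 in CeHi. It had 402, 634, 563 and 514 in StCo and 594, 721 and 671 in StHi. The lines overlapped in each region. The mean was 8.14 times as high in the Ce (log2 difference 3.005 ± 0.10, SE, FDR-adjusted P-value = 2.1e-13). The log2 line difference (Hi minus Co) was -0.12 ± 0.14 for the Ce and 0.33 ± 0.15 for the St (FDR-adjusted P-values 0.70 and 0.32), the same signs as for Gdf10, and the interaction was -0.45 ± 0.20 (unadjusted P-value = 0.0418, FDR-adjusted P-value = 0.49).

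**Figure D4:**
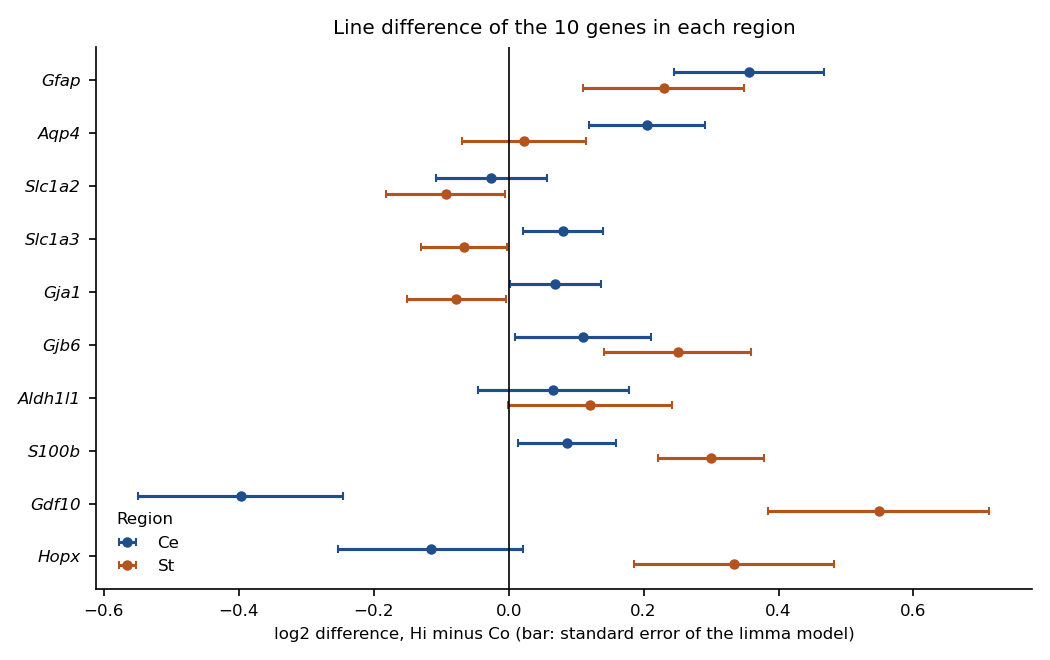
Log2 line difference (Hi minus Co, x axis) of each of the 10 genes, drawn per region, with points for the limma estimate and bars for its standard error. Gfap is positive in both regions (0.36 and 0.23), Gdf10 is negative in the Ce (-0.40) and positive in the St (0.55), and the transporters Slc1a2 and Slc1a3 stay within 0.1 of 0.

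Across the 15 samples, after removal of the group means, the 10 genes did not vary as a block. Of 45 pairs of members, 27 had a positive correlation, with a median Pearson r of 0.16, and these samples share their library and tissue piece, so the values are descriptions. Aldh1l1 and Gdf10 (r = 0.73), Aqp4 and Slc1a2 (0.72) and Slc1a3 and Gdf10 (0.67) were the most alike, and Gjb6 and Hopx (-0.45) the least. Each gene was also set against the mean of the remaining standardized members. Gdf10 followed that mean most closely (r = 0.59) and Gjb6 ran against it (r = -0.24). Genes outside the list were searched for residuals most like the mean of the 10. Values found this way are raised by the selection and cannot be set beside those of the members. The highest were those of Enpep (r = 0.88), an aminopeptidase known in blood vessel cells, Cd28 (0.87), a receptor of T cells, and Aldh7a1 (0.87), an enzyme of lysine breakdown. Their mean levels were 119 to 135 normalized counts for Enpep and 1412 to 1889 for Aldh7a1, and Cd28 had 38.9 in CeCo and 38.1 in CeHi against 3.87 in StCo and 1.08 in StHi, the St means being near or under the worth of 3 fragments.

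Other genes of the same cells were described by lists taken from general knowledge, with no test of a list. The lists were chosen with earlier results of these data known, so they are not independent of these data. The counts of each list stand beside limma shares over all genes tested of 40.6% higher in the Ce and 39.6% higher in the St. For the lines, in either direction, the shares were 5.94% in the Ce, 2.66% in the St, 8.48% over both regions and 0.532% for the interaction. Of all 15213 genes tested, 2990 in the Ce and 2141 in the St had an unadjusted P-value under 0.05. The count was 3391 over both regions and 1454 for the interaction. DESeq2 called 1390 of 15212 genes in the Ce, 711 in the St, 1718 over both regions and 277 for the interaction. Among 14 further Bergmann glia genes, 13 were higher in the Ce and 1, Etv5, was higher in the St, with a median log2 difference of 1.17 against 0.01 over all genes. Dao, the enzyme that breaks down D-serine, had 1903 ± 300.3 (SD, n = 4) normalized counts in CeCo, close to its 2056 ± 280.1 (n = 4) in CeHi, whereas the St means were 2.66 ± 0.910 (StCo, n = 4) and 4.21 ± 2.53 (StHi, n = 3). A2m, a protease inhibitor, was higher in the Ce by 5.26 ± 0.21 (log2, SE). Etv5, a transcription factor downstream of fibroblast growth factor signals, had a log2 difference of -0.74 ± 0.10 (Ce minus St). None of the 14 was called between lines by limma or edgeR in the Ce, in the St, over both regions or in the interaction, where 0, 4, 2 and 2 of them had an unadjusted P-value under 0.05, and DESeq2 called A2m in the St and over both regions.

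Of 10 transmitter uptake and metabolism genes, 4 were higher in the Ce and 4 in the St. These counts were close to the shares over all genes tested, 40.6% and 39.6%. Aldoc, the glycolytic enzyme aldolase C that is also abundant in Purkinje cells, was higher in the Ce (log2 1.29 ± 0.04, SE), and so was the glycine transporter Slc6a9 (0.84 ± 0.06). The GABA transporter Slc6a11 (-1.64 ± 0.13) and glutamine synthetase Glul (-0.63 ± 0.06) were higher in the St. Over both regions 3 of the 10 were higher in Hi, namely Slc6a9 (0.20 ± 0.06, FDR-adjusted P-value = 0.033), the cystine-glutamate exchanger Slc7a11 (0.40 ± 0.12, 0.0497) and the glycogen phosphorylase Pygb (0.16 ± 0.04, 0.023). Within the Ce limma and edgeR called 0 of the 10, with 1 at an unadjusted P-value under 0.05, which DESeq2 called (Glul). Within the St, limma and edgeR called Slc6a9 and DESeq2 called Pygb as well. Slc6a9 was higher in Hi, with 1885 ± 203 (SD, n = 4) normalized counts in StCo and 2420 ± 147 (n = 3) in StHi (log2 0.36 ± 0.08, FDR-adjusted P-value = 0.025). The median log2 line difference of the 10 genes was 0.06 for the Ce and 0.18 for the St.

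Of 13 genes for ion and water homeostasis, 9 were higher in the Ce and 2 were higher in the St, among them Dag1 (-0.13 ± 0.05, SE), dystroglycan, part of the complex that holds Aqp4 at the endfoot membrane. The largest Ce differences were those of the connexin Gjb2 (log2 1.68 ± 0.16) and of the potassium channel Kcnj16 (1.67 ± 0.08). Over both regions the partner channels Kcnj10 and Kcnj16, which carry potassium buffering, were higher in Hi (0.22 ± 0.05, FDR-adjusted P-value = 0.0104, and 0.30 ± 0.08, 0.027). Kcnj10 had 15603 ± 515 (SD, n = 4) normalized counts in CeCo against 18388 ± 1336 (n = 4) in CeHi, and 14635 ± 1062 (n = 4) in StCo against 17026 ± 1594 (n = 3) in StHi. Within a single region limma and edgeR called 0 of the 13, with 3 in the Ce and 4 in the St at an unadjusted P-value under 0.05, while DESeq2 called Kcnj10 and Kcnj16 for the Ce and 0 for the St. The list medians of the line difference were -0.03 (Ce) and 0.05 (St).

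Among 14 receptor and lipid genes of astrocytes, limma called Pla2g7 and Ntsr2 lower in Hi and Ndrg2 higher. Pla2g7, a secreted phospholipase that cleaves platelet-activating factor, had 12512 ± 851 (SD, n = 4) normalized counts in CeCo against 8678 ± 715 (n = 4) in CeHi, and 4516 ± 387 (n = 4) in StCo against 3069 ± 118 (n = 3) in StHi. Its log2 difference (Hi minus Co) was -0.53 ± 0.07 (SE) for the Ce and -0.56 ± 0.08 for the St (FDR-adjusted P-values 0.00013 and 0.00030). Ntsr2, a neurotensin receptor, had 3279 ± 73.2 in CeCo against 1938 ± 291 in CeHi, and 4500 ± 508 in StCo against 4034 ± 189 in StHi. Its difference was -0.78 ± 0.09 for the Ce and -0.16 ± 0.10 for the St (FDR-adjusted P-values 3.2e-05 and 0.53), and the difference between the regions was itself called (-0.62 ± 0.13, FDR-adjusted P-value = 0.045). Ndrg2 was called over both regions (0.19 ± 0.05, FDR-adjusted P-value = 0.018). Between regions 7 of the 14 were higher in the Ce, led by Pla2g7 (1.48 ± 0.05) and Itih3 (1.39 ± 0.17), and 6 in the St, led by Entpd2 (-1.39 ± 0.10) and the thyroid hormone carrier Slco1c1 (-0.94 ± 0.11).

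In a list of 12 genes for secreted proteins and metallothioneins, limma called 2 lower in Hi in the Ce, both of them metallothioneins. In the St it called 3 lower, among them the same metallothioneins, and 2 higher. The metallothioneins Mt2 and Mt3, which bind zinc and copper, fell in Hi in both regions. Mt3, the brain form, had 4455 ± 262 (SD, n = 4) normalized counts in CeCo against 2353 ± 305 (n = 4) in CeHi, and 5990 ± 299 (n = 4) in StCo against 3850 ± 382 (n = 3) in StHi, with log2 differences of -0.93 ± 0.08 (SE) and -0.65 ± 0.09 (FDR-adjusted P-values 1.2e-06 and 0.00033). Mt2 differed by -0.89 ± 0.13 and -0.63 ± 0.14 (0.00065 and 0.028). Sparc, a matrix protein made by Bergmann glia and other astrocytes, had 12591 ± 2487 in StCo against 17630 ± 966 in StHi (0.50 ± 0.11, FDR-adjusted P-value = 0.025). Agt, the angiotensin precursor that astrocytes make in the brain, had 463 ± 220 in StCo against 1524 ± 391 in StHi (1.86 ± 0.38, FDR-adjusted P-value = 0.020), while in the Ce the difference was 0.25 ± 0.35 and the interaction was not called (FDR-adjusted P-value = 0.27).

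The other limma calls of this list, named after their values were seen, were Chrdl1 in the St (log2 -0.69 ± 0.16, SE, FDR-adjusted P-value = 0.030) and Mt1 over both regions (-0.34 ± 0.08, 0.014). DESeq2 also called Mt1 in the Ce and Chrdl1 and Gpc4 for the interaction. Metallothioneins are similar in sequence, and how the counting treated reads shared between genes is not given in the sources used here. Between regions 5 of the 12 were higher in the Ce, led by Agt (1.68 ± 0.26) and Sparc (1.63 ± 0.08), and 7 in the St, led by Thbs4 (-5.30 ± 0.19) and Cst3 (-1.61 ± 0.06).

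Of 14 glial transcription factors, 6 were higher in the Ce and 5 in the St. Pax3 had 371 ± 27.1 (CeCo, SD, n = 4) and 362 ± 16.4 (CeHi, n = 4) normalized counts in the Ce and was at 0 in all St samples, and Zic1 was higher in the Ce by 4.47 ± 0.26 (log2, SE). Lhx2, a homeodomain factor of the forebrain, had 1513 ± 131 in StCo and 7.38 ± 3.31 in CeCo. Nfia, a nuclear factor I gene that drives astrocyte development, was the factor that limma and edgeR called between lines, lower in Hi in the Ce (log2 -0.32 ± 0.08, FDR-adjusted P-value = 0.024) and over both regions (-0.30 ± 0.06, 0.0037), with -0.27 ± 0.09 in the St (0.11). DESeq2 also called Nfib over both regions. In the St limma, edgeR and DESeq2 called 0 of the 14, and 3 had an unadjusted P-value under 0.05.

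Of 19 genes known to rise in reactive astrocytes, 15 passed the filter on low values, and of these 1 was called higher in Hi in the Ce, 2 over both regions and 0 in the St, where 2 had an unadjusted P-value under 0.05, edgeR called 0 and DESeq2 called Cp. Amigo2, an adhesion protein, had 630 ± 43.5 (SD, n = 4) normalized counts in CeCo against 1123 ± 10.2 (n = 4) in CeHi, and 654 ± 71.2 (n = 4) in StCo against 748 ± 96.2 (n = 3) in StHi. Its log2 difference was 0.83 ± 0.09 (SE) for the Ce and 0.19 ± 0.09 for the St (FDR-adjusted P-values 7.8e-06 and 0.38), and the interaction was called (0.64 ± 0.13, 0.026). Cp, the copper-binding ceruloplasmin, was called over both regions (0.58 ± 0.15, FDR-adjusted P-value = 0.025). Between regions 8 of the 15 were higher in the Ce, led by the filament protein Vim (2.64 ± 0.12), which Bergmann glia express, and Serping1 (2.27 ± 0.08), and 5 in the St, led by the stress-response gene Fkbp5 (-1.89 ± 0.18) and Serpina3n (-1.34 ± 0.15). The median log2 line difference was 0.12 for the Ce and 0.07 for the St.

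**Figure D5:**
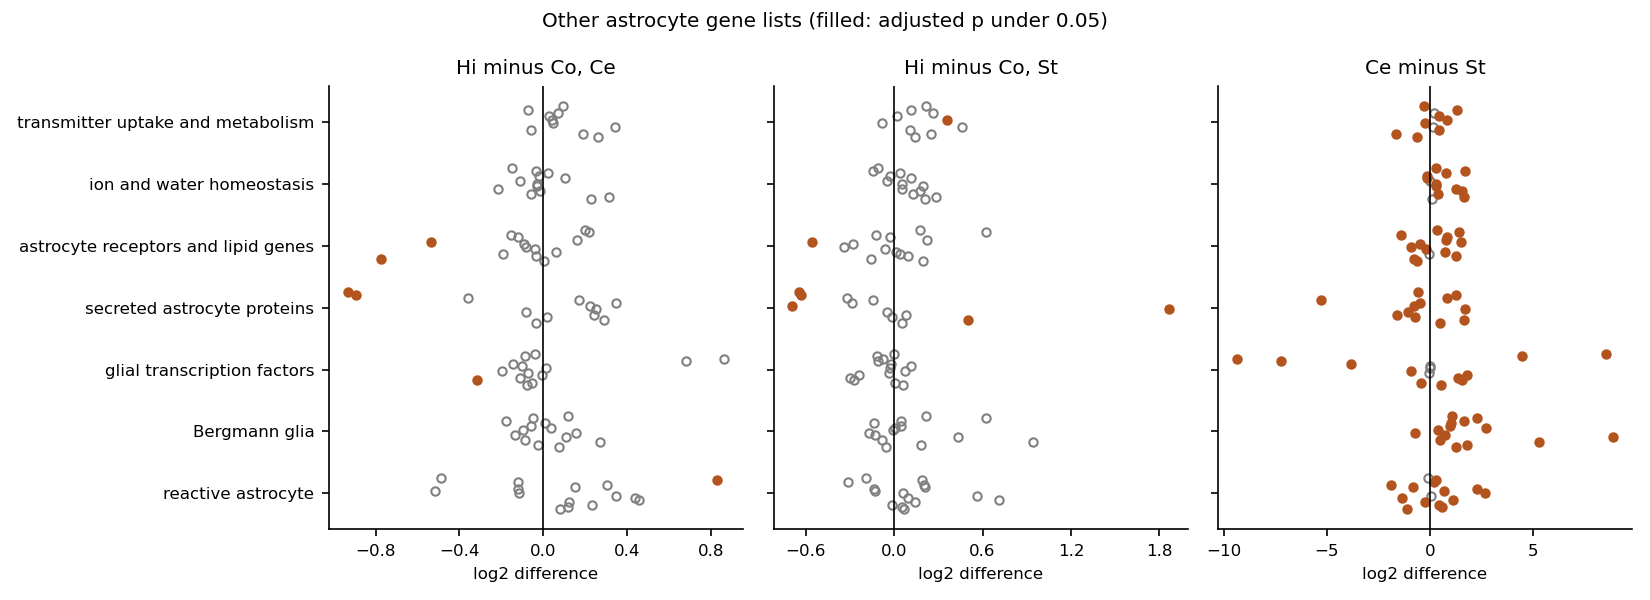
Log2 differences of the genes in the 7 further lists (rows), each point a gene, between lines in the Ce (left), between lines in the St (middle) and between regions (right), with filled points where the FDR-adjusted P-value was under 0.05. The Bergmann glia row lies to the right of 0 in the region panel except for Etv5 and has no filled point between lines, and the filled points farthest to the left in the Ce panel are Mt3 (-0.93) and Mt2 (-0.89).

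Markers of other cell types were examined beside these genes. The leptomeninges, which cover the brain, had 5 of 5 markers higher in the Ce, with sums of 3570 to 4566 normalized counts in CeCo and 2564 to 3727 in CeHi, against 730 to 1150 in StCo and 654 to 834 in StHi. Choroid plexus markers varied within groups, with sums of 1303 to 115133 in CeCo and 942 to 111567 in CeHi, against 1251 to 1765 in StCo and 1761 to 17849 in StHi, and 2 of 4 were higher in the Ce. Microglia (5 of 5), oligodendrocyte precursor (3 of 3) and neuroblast markers (4 of 4) were higher in the St, and no region call was made among the 4 endothelial and the 4 ependymal markers. Over both regions, the microglial C1qa was higher and P2ry12 lower in Hi, and Penk of 5 medium spiny neuron markers and Sox11 of 4 neuroblast markers were higher. Of the remaining lists, limma and edgeR called 0 markers between lines over both regions for neurons in general, granule cells, Purkinje cells, oligodendrocyte precursors, endothelium, leptomeninges, choroid plexus and ependyma. At an unadjusted P-value under 0.05 there were 1 neuronal, 1 endothelial and 3 leptomeningeal markers, and DESeq2 called Slco1a4 of the endothelium and Dcn and Col1a1 of the leptomeninges. The part of these cell types in the differences of the astrocyte genes was not tested.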

How the data were processed

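RNA-seq was compared between region and line in 4 CeCo, 4 CeHi, 4 StCo and 3 StHi samples, grouped by their deposited titles. Per the study's methods, paired-end reads of 100 bases were aligned to GRCm38 with TopHat2 and scaled by library size. The deposited gene expression signal, made by the authors with Cuffnorm 2.2.1, is the fragment count per gene divided by a factor per sample. It is not divided by gene length, although its table is named for FPKM. Between 99.6% and 99.8% of low values in a sample were whole fragments within 0.1, and totals were 32909383 to 47485535 fragments.

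Genes with at least 1 CPM in 3 samples, 15213 of 26628, were scaled with TMM factors (0.993 to 1.01) and fitted as log2 of the value plus 1 with limma 3.58.1 in R 4.3.3 (trended, robust), with Benjamini-Hochberg adjustment and a threshold of 0.05. Folds are on this scale, apart from ratios of means. Because the values are not whole counts, edgeR 4.0.16 and DESeq2 1.42.0 were run as alternatives on the fragments recovered from them, and edgeR called 952 genes between lines in the Ce, 420 in the St, 100 for the interaction and 1323 over both regions. The scripts were tested on simulated data. The 10 members, 7 gene lists and 12 marker lists were chosen with earlier results of these data known. Some list genes are not reported here by name. Named genes are the members, up to 3 genes per list called between lines, and the 2 called genes per direction with the largest region difference. The study's methods describe samples of individual mice, the labels do not number the mice, and P-values measure the spread between these samples. Promoter sequences are from RefSeq on GRCm38.p6 and gene models from GENCODE M21.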

Additional observations from a re-analysis of the deposited data

Results flagged for a closer look

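Aqp4 and Aldh1l1 each had 1 sample that stood far from the others of its group by Dixon's ratio, among 30 groups of 4 samples examined, where chance gives about 1 in 20. Aqp4 in StCo replicate 2 was low, at 3784 normalized counts. Aldh1l1 was high in the same sample, at 1922 normalized counts. Without StCo replicate 2, the log2 line difference of Aqp4 in the St was -0.07 in place of 0.02, and neither passed the test.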

How the results depend on the processing

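Of 1170 member values recomputed under the alternatives, 1106 kept their direction and side of the threshold, 21 passed it newly, 18 no longer passed it and 25 changed sign. Regional calls stayed at 9, or 10 without StHi replicate 1. The count in the Ce rose from 0 to 1 with DESeq2 or quality weights (0 to 1 over samples left out). That in the St rose from 0 to 1 with no scaling, quality weights, the replicate block or each region fitted alone, and to 2 with DESeq2 (0 to 2 over samples left out). The interaction count rose from 0 to 1 with DESeq2 (0 to 1 over samples left out). The count over both regions was 0 to 2 over samples left out, and 1 with the replicate number as a block (S100b, FDR-adjusted P-value 0.0166, against 0.0673 for Gfap). This block joins same-numbered samples of both lines, which are different mice, so it does not stand for a mouse. A block by mouse was not fitted. Whether the numbers pair the samples is not settled. Nothing in the labels ties them, and residuals of same-numbered samples correlated at 0.171 to 0.278 in all 4 pairs of CeCo and StCo, where a shared mouse or batch cannot be told from the labels, but at -0.0751 to 0.0513 between CeHi and StHi and at -0.221 to 0.183 between CeCo and CeHi. The block moved the count over all genes to 948 in the Ce, 374 in the St, 73 for the interaction and 1401 over both regions. Over all genes, DESeq2 called 1390 in the Ce, 711 in the St and 277 for the interaction, and quality weights 740 in the St and 182 for the interaction, against 903, 405 and 81, with 42 to 117 for the interaction over samples left out.

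Log2 line differences that changed sign were near 0. With quality weights they were -0.056 for Aqp4 in the St, 0.00072 for Slc1a2 in the Ce and 0.0024 for the Aldh1l1 interaction. The block gave -0.0043 for Slc1a3 over both regions and -0.023 for the Slc1a3 to Slc1a2 ratio in the St. For Gja1 over both regions, no filter gave 0.0037 and no scaling 0.0014. Over samples left out the ranges were -0.070 to 0.10 (Aqp4, St), -0.069 to 0.027 (Slc1a2, Ce), -0.0050 to 0.031 (Slc1a3, both regions), -0.15 to 0.0010 (Gja1, St), -0.041 to 0.035 (Gja1, both regions), -0.22 to 0.014 (Gjb6, interaction), -0.025 to 0.17 (Aldh1l1, Ce) and -0.15 to 0.041 (Aldh1l1, interaction). Log2 ratio differences ranged from -0.02 to 0.13 for Slc1a3 to Slc1a2 in the St and from 0.052 to 0.18 in the Ce. The highest Ce value, without CeHi replicate 1, had an unadjusted exact permutation P-value of 0.0286. That replicate was the sole CeHi sample not above every CeCo sample (log2 ratio 0.59). Leaving it out thus set the P-value to the smallest the test can give, and nothing is concluded from it. For Gja1 to Gjb6 in the Ce the log2 ratio differences ranged from -0.10 to 0.016. The causes were not tested. Every member value rested on 302 fragments or more, and the part of depth in the intervals was not tested.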
